A study of Mus musculus with 27 samples.

Results

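Nr4a1, Nr4a2, Nr4a3, Egr1, Egr2, Egr3 and Cd69 are 7 genes that T cells switch on soon after their antigen receptor is engaged, and their transcripts were followed across 9 sorted groups of mouse T cells. They were taken from a fixed list of immediate T cell receptor response genes, with every array probe set that the platform's gene table assigns to that single gene. All 7 were measured, by 16 probe sets, among 18194 genes on the array. Levels are log2 of the deposited intensity, so a difference of 1 is a doubling. Each gene is read on its brightest probe set unless another is named.

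Engagement of the T cell receptor activates ERK and calcium signalling, and these act on factors already bound at the promoters of immediate early genes. The Nr4a genes encode orphan nuclear receptors whose activity follows their amount, because they need no ligand. The Egr genes encode zinc finger transcription factors that are induced through ERK. Cd69 encodes a surface lectin that appears on activated T cells and thymocytes and holds them in the tissue by removing the egress receptor S1PR1 from the surface. In the thymus, Nr4a transcripts are widely used to read how strongly a thymocyte is signalled, and regulatory T cells (Tregs) arise among strongly signalled CD4 thymocytes.

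The 27 samples came from BALB/c mice, with 3 arrays in each of 9 groups. The thymic CD24 groups combine Foxp3, the transcription factor that defines Tregs, with CD24, which thymocytes lose from their surface as they mature. Foxp3+GFP+ and Foxp3-GFP- thymocytes were each sorted as CD24hi, CD24int and CD24lo cells, from most to least CD24. Another thymic group held Treg precursors, described in the series title as CD4 single-positive Foxp3GFP- CD25+ cells, and no label gave their CD24 level. The remaining groups were Tregs and naive T cells of lymph node. The Foxp3- groups carry the word Treg in their source label but are the conventional counterpart in the series design, and are treated as such here. No label gave the age or number of animals, or the construct behind GFP. Nor did any say whether the 3 arrays of a group stand for different mice, and the p-values therefore reflect only variation among these samples, which may be technical.

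Foxp3 lay between 9.74 and 10.19 in the 12 arrays of Foxp3+ thymocytes and lymph node Tregs, and between 3.31 and 4.37 in the other 15. Il2ra, which encodes CD25, was at 7.93 to 8.48 in the precursors, at least 9.65 in the Foxp3+ groups and at most 4.90 in the Foxp3- CD24 groups and naive cells. Cd24a, which encodes CD24, fell by 1.26 and then 1.45 along the CD24 levels of Foxp3+ thymocytes. In Foxp3- thymocytes it fell by 2.73 and then 2.20. Foxp3+ CD24lo cells had it 3.08-fold higher than Foxp3- CD24lo cells (adjusted p = 0.00569 in limma). At CD24hi and CD24int it differed by -0.59 and 0.87, with adjusted p above 0.05. Whether cells of the same CD24 level were equally mature was not tested. The T cell markers Cd3e, Cd3d, Cd3g, Cd4 and Cd2 were at 8.20 or above in every array. Replicate 3 of Foxp3- CD24hi stood apart by a set of 5 liver transcripts, whose summed level was 12.79 in it and at most 7.10 in the other 26 arrays. Comparisons of the 7 genes and of gene lists that use this group are also given without that array, while correlations and spans of group means are not. In sorted cells, a transcript made by fewer cells and a transcript made at a lower level per cell cannot be told apart.

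The levels differed over the 9 groups for 6 of the 7 genes (moderated F test in limma, adjusted p under 0.05), against 39.8% of all genes. Nr4a3 had the smallest p of the 7 (adjusted p = 1.05e-16) and ranked 33 among the 18194 genes. Without replicate 3 of Foxp3- CD24hi the same 6 genes passed. Cd69 did not pass (adjusted p = 0.19), but did with a block on the replicate number (adjusted p = 0.00362). The span between the highest and the lowest group mean was 13.6-fold for Nr4a2, 9.29-fold for Nr4a3 and 6.49-fold for Nr4a1. It was 3.40-fold for Egr3, 3.24-fold for Egr2, 2.23-fold for Egr1 and 1.91-fold for Cd69.

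The genes did not share 1 pattern. All 3 Nr4a transcripts were highest in the Treg precursors and lowest in lymph node naive cells. Egr1 and Egr2 were highest in Foxp3- CD24hi thymocytes and lowest in lymph node naive cells. Egr3 was highest in Foxp3- CD24lo thymocytes, the group in which Cd69 was lowest. Over the 9 group means the Nr4a genes correlated with each other at r = 0.904 to 0.917, and Egr1 with Egr2 at 0.817. Egr1 against the Nr4a genes gave r = 0.183 for Nr4a1, 0.006 for Nr4a2 and -0.09 for Nr4a3. Egr3 ran against Nr4a3 at r = -0.811 and against Cd69 at -0.882. These are descriptions over 9 points that share arrays and normalization.

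**Figure D1:**
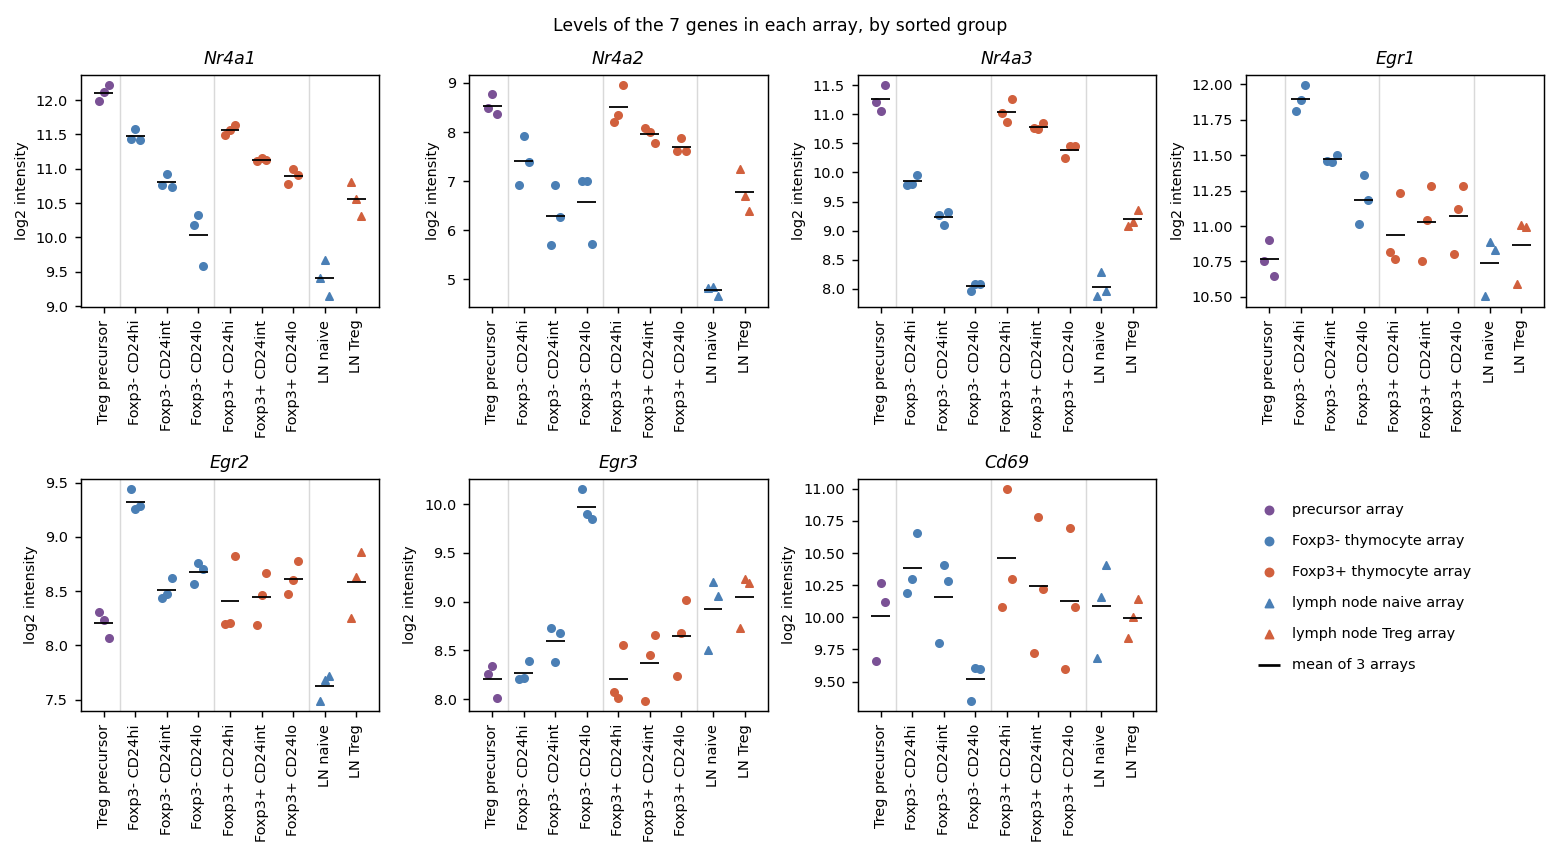
Log2 intensity (vertical axis) of the 7 genes in each of the 27 arrays, by sorted group (horizontal axis). Points are arrays, black bars are means of 3, purple marks precursors, blue Foxp3- or naive cells, orange Foxp3+ cells or Tregs, and triangles lymph node. Nr4a3 group means run from 11.25 in precursors to 8.04 in naive cells, Egr1 and Egr2 peaked in Foxp3- CD24hi cells, and Egr3 peaked in Foxp3- CD24lo cells at 9.97.

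Nr4a3 encodes the nuclear receptor also called NOR1. Its arrays read 11.21, 11.05 and 11.50 in precursors. In Foxp3+ thymocytes they read 11.02, 10.86 and 11.26 at CD24hi, 10.76, 10.76 and 10.84 at CD24int, and 10.25, 10.46 and 10.46 at CD24lo. In Foxp3- thymocytes they read 9.79, 9.80 and 9.95 at CD24hi, 9.27, 9.09 and 9.32 at CD24int, and 7.97, 8.09 and 8.09 at CD24lo. Every Foxp3+ thymocyte array was therefore above every Foxp3- thymocyte array, and within each class the 3 CD24 levels did not overlap. Lymph node Tregs read 9.07, 9.16 and 9.36, and naive cells 7.87, 8.29 and 7.96. Of the 8 neighbouring pairs in the order of group means, 5 had arrays that did not overlap, and precursors and Foxp3+ CD24hi cells did overlap.

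Nr4a1 encodes the receptor whose reporter mice are used to read T cell receptor signalling. Its arrays read 11.98, 12.11 and 12.22 in precursors, 11.49, 11.56 and 11.64 in Foxp3+ CD24hi and 11.44, 11.58 and 11.42 in Foxp3- CD24hi thymocytes. The precursors were thus above both CD24hi groups, which overlapped each other. At CD24int the Foxp3+ arrays read 11.12, 11.16 and 11.13 and the Foxp3- arrays 10.77, 10.93 and 10.73. At CD24lo they read 10.77, 11.00 and 10.90 against 10.18, 10.32 and 9.59. The Foxp3+ arrays were above the Foxp3- arrays at both of these levels. In lymph node, Tregs read 10.81, 10.55 and 10.31 and naive cells 9.41, 9.68 and 9.14, again without overlap.

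Nr4a2, the nuclear receptor also called NURR1, varied more between replicates, with group SDs up to 0.74. Its arrays read 8.48, 8.77 and 8.37 in precursors and 8.21, 8.35 and 8.96 in Foxp3+ CD24hi cells. Foxp3- CD24hi cells read 6.93, 7.91 and 7.39, all lower than either of those groups. At CD24int the Foxp3+ arrays read 8.09, 8.01 and 7.77 and the Foxp3- arrays 5.71, 6.91 and 6.27. At CD24lo they read 7.61, 7.87 and 7.61 against 6.99, 7.01 and 5.73. Lymph node Tregs read 7.25, 6.69 and 6.40. Naive cells read 4.82, 4.85 and 4.65, below every other array of the series for this gene.

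The upstream sequences of the Nr4a genes and of Egr2 are shown because the Nr4a transcripts moved together while Egr2 did not follow them. Each window runs from 250 bases before to 50 after a RefSeq transcript start on GRCm38.p6, 5′ to 3′ on the gene's strand. Windows of 4 of the 7 genes are printed, and none is shown for Egr1, Egr3 or Cd69. For Egr2, which has 5 RefSeq windows, the first of those with the most kinds of match is printed. Capitals mark matches on either strand to the cyclic AMP response element TGACGTCA, its shorter form TGACG, the related TGCGTCA, the Egr-type site GCGNGGGCG, the Nr4a-type site AAAGGTCA, or the CArG box, which binds serum response factor.
Nr4a1, chr15:101266596-101266895, plus strand: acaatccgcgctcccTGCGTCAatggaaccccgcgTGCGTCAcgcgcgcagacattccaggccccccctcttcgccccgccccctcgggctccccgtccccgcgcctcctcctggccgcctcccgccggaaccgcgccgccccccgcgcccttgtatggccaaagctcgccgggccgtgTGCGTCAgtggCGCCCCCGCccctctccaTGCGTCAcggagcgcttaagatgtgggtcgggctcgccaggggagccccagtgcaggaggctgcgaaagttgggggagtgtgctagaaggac
Nr4a2, chr2:57123954-57124253, minus strand: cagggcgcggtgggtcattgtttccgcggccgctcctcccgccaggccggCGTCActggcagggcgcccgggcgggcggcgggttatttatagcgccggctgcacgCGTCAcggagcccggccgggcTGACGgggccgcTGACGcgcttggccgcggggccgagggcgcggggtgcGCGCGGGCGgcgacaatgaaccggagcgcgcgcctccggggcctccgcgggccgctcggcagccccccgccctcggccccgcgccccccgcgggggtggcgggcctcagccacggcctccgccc
Nr4a3, chr4:48045055-48045354, plus strand: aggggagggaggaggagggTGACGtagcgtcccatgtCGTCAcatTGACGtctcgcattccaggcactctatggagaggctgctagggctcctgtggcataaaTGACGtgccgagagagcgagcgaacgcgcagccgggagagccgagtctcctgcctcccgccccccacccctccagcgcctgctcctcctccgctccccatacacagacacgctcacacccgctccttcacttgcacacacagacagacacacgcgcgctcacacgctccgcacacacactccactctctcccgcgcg
Egr2, chr10:67537619-67537918, plus strand: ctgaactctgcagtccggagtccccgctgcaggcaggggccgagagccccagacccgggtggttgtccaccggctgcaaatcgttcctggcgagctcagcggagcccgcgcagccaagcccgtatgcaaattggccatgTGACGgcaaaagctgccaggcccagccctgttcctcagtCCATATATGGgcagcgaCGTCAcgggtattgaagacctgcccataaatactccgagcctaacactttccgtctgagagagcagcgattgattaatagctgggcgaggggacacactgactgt

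Each of the 3 Nr4a windows held 4 matches to the shorter element TGACG, of which 20.8% of the 32851 windows of the table hold at least 1. The share of windows with 4 was not computed. In Nr4a1 all 4 lay within matches to TGCGTCA, of which 2.12% of windows hold at least 1. Nr4a1 and Nr4a2 also held 1 Egr-type match each, against 5.55% of windows. The Egr2 window held 2 of the shorter elements and 1 CArG box, and 1.63% of all windows hold at least 1 of the latter. That share cannot tell how unusual the Egr2 matches are, because this window was chosen among the Egr2 windows for its kinds of match. An unprinted Egr2 window had 0 kinds of match, and another held only a CArG box. The Nr4a genes had 1 window each and no such choice. The full element (1.79% of windows) and the Nr4a-type site (1.51%) matched none of the 4 windows. These windows are GC-rich, at 60.0% for Egr2 and 64.7% to 81.7% for the Nr4a genes against a median of 52.7%. A match describes letters, not binding.

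At CD24hi, the least mature stage, Foxp3+ and Foxp3- thymocytes differed in 4 of the 7 genes, 2 higher and 2 lower in Foxp3+ cells, where 18% of all genes passed. Nr4a3 was 2.30-fold higher (log2 difference 1.20 ± 0.13 SE, adjusted p = 1.13e-07). Nr4a2 was 2.14-fold higher (1.10 ± 0.31, adjusted p = 0.0122). Nr4a2 rested on single arrays: its adjusted p was 0.0858 without replicate 1 of Foxp3- CD24hi and 0.077 without replicate 3 of Foxp3+ CD24hi. Egr1 was 1.95-fold lower in Foxp3+ cells (-0.96 ± 0.16, adjusted p = 5.35e-05), and Egr2 was 1.89-fold lower (-0.91 ± 0.16, adjusted p = 0.000122). Nr4a1 differed by 0.08, with a 95% interval of -0.23 to 0.40. Without replicate 3 of Foxp3- CD24hi the same 4 genes passed, at 1.25 for Nr4a3, 1.09 for Nr4a2, -0.91 for Egr1 and -0.94 for Egr2.

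The arrays behind the Egr difference were tight in the Foxp3- group. Egr1, the founding member of its family, read 11.81, 11.89 and 12.00 in Foxp3- CD24hi cells and 10.82, 10.77 and 11.23 in Foxp3+ CD24hi cells. Egr2, which limits T cell activation and cytokine production, read 9.44, 9.25 and 9.28 against 8.20, 8.21 and 8.82. Neither gene overlapped between the groups. Markers of double-positive thymocytes, the stage before, were also higher in Foxp3- CD24hi cells, with 3 of 6 passing, also without replicate 3 of Foxp3- CD24hi, at a summed level of 9.64 to 9.83 against at most 9.08 in all other groups except the precursors. The precursors had these markers at 10.04 to 11.25. The part of double-positive cells in the Egr difference was not tested.

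At CD24int only the Nr4a genes Nr4a2 and Nr4a3 passed, 2 of 7 against 15.3% of all genes. Nr4a2 was 3.16-fold higher in Foxp3+ cells (1.66 ± 0.31, adjusted p = 0.000278) and Nr4a3 was 2.94-fold higher (1.56 ± 0.13, adjusted p = 1.66e-09). Nr4a1 was higher by 0.33 ± 0.15 without overlap of its arrays but did not pass (adjusted p = 0.186). Egr1 read 11.46, 11.45 and 11.51 in Foxp3- cells and 10.75, 11.05 and 11.29 in Foxp3+ cells, which do not overlap. Its difference of -0.44 ± 0.16 missed the threshold (adjusted p = 0.0559). Egr2 was within -0.39 to 0.26 of equality (95% interval). Of 6 markers of natural killer and innate-like T cells, 5 were lower in Foxp3+ CD24int cells, and their part in these differences was not tested.

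At CD24lo all 3 Nr4a genes were higher in Foxp3+ cells and Egr3 was lower, 4 of 7 against 21% of all genes. Nr4a3 was 5.06-fold higher (2.34 ± 0.13, adjusted p = 4.82e-13), Nr4a1 was 1.82-fold higher (0.86 ± 0.15, adjusted p = 0.000118) and Nr4a2 was 2.18-fold higher (1.12 ± 0.31, adjusted p = 0.00824). Replicate 3 of Foxp3- CD24lo, the lowest of its group for Nr4a1 and Nr4a2, decided the Nr4a2 call: without it the difference was 0.70 (adjusted p = 0.11). Egr3 was 2.50-fold lower in Foxp3+ cells (-1.32 ± 0.21, adjusted p = 2.11e-05). Egr1 and Egr2 differed by -0.12 ± 0.16 and -0.06 ± 0.16 and did not pass. All 6 natural killer and innate-like markers were lower in Foxp3+ than in Foxp3- CD24lo cells, with a median difference of -5.91, and their part in the Nr4a and Egr3 differences was not tested.

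**Figure D2:**
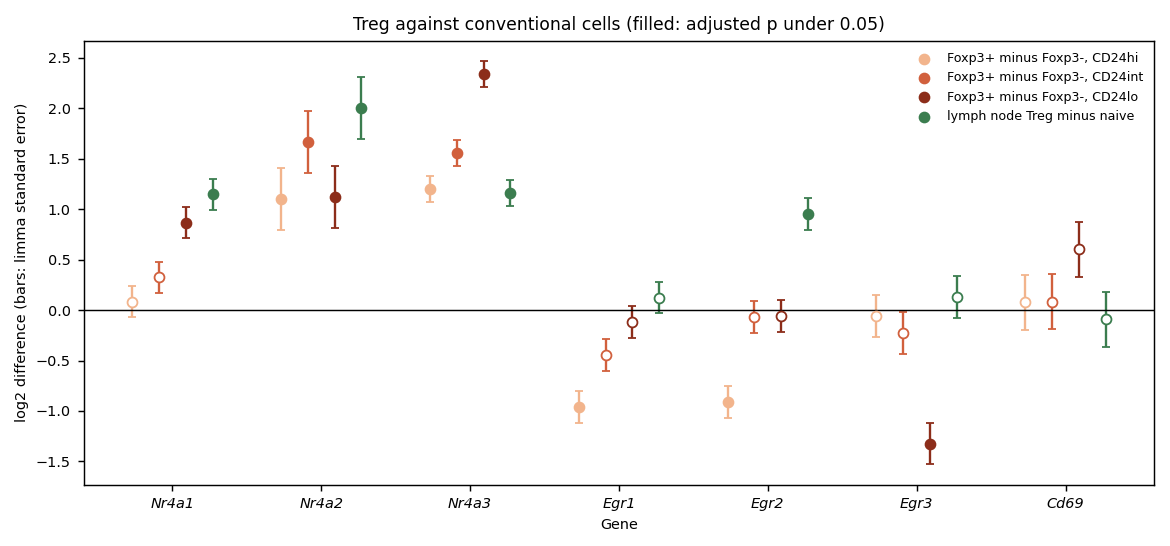
Log2 difference (vertical axis) between Foxp3+ and Foxp3- thymocytes at each CD24 level, and between lymph node Tregs and naive cells, for each gene (horizontal axis). Points are limma estimates from 3 arrays a group, bars are their standard errors, and filled points passed at an adjusted p under 0.05. Nr4a2 and Nr4a3 are above 0 in all 4 comparisons, from 1.10 to 2.34, while the Egr genes are below 0 or near it in the thymus, and Egr2 is 0.95 higher in lymph node Tregs.

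In lymph node, Tregs exceeded naive cells in 4 of the 7 genes, all 3 Nr4a genes and Egr2, where 12.4% of all genes passed. Nr4a2 was 4.01-fold higher (2.00 ± 0.31, adjusted p = 2.58e-05), Nr4a3 was 2.23-fold higher (1.16 ± 0.13, adjusted p = 2.18e-07) and Nr4a1 was 2.22-fold higher (1.15 ± 0.15, adjusted p = 3.92e-06). Egr2 was 1.93-fold higher (0.95 ± 0.16, adjusted p = 8.32e-05). Its Treg arrays read 8.25, 8.63 and 8.86, and its naive arrays, the lowest of the series for this gene, read 7.49, 7.68 and 7.71. Egr1 read 10.59, 11.01 and 11.00 in Tregs and 10.50, 10.89 and 10.83 in naive cells, which overlap, and it differed by 0.12 ± 0.16. The Nr4a3 difference was 0.28 on the mean of its 3 probe sets and did not pass (adjusted p = 0.132). In the same comparison 5 of 6 innate-like markers were lower in Tregs and 0 of 4 B cell markers passed, and the part of such cells was not tested.

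The Treg difference itself changed between lymph node and CD24lo thymocytes for 3 of the 7 genes, against 11% of all genes. For Nr4a3 it was smaller in lymph node by 1.18 on the log2 scale (-1.18 ± 0.18, adjusted p = 4.88e-05). For Egr2 it was larger by 1.01 ± 0.22 (adjusted p = 0.00283). For Egr3 the term was 1.45 ± 0.29 (adjusted p = 0.00107), because its difference of -1.32 at CD24lo was 0.13 in lymph node. Nr4a1 (0.29 ± 0.22) and Nr4a2 (0.88 ± 0.43) did not pass. Tissue and maturity change together in this comparison. The same term passed for 5 of 6 innate-like markers, with a median of 2.99, and the Foxp3- CD24lo group, where these markers were highest, enters it. Their part in the terms of the 7 genes was not tested.

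Against the CD24lo thymocytes of their own class, lymph node Tregs differed in 1 of the 7 genes, where 5.93% of all genes passed. Nr4a3 was 2.28-fold lower in lymph node Tregs (-1.19 ± 0.13, adjusted p = 8.07e-07). Nr4a2 was lower by 0.92 ± 0.31 without overlap of arrays and missed the threshold at an adjusted p of 0.0859, which was 0.0434 when the fit blocked on the replicate number. Lymph node naive cells differed from Foxp3- CD24lo thymocytes in 4 of the 7 genes, all lower in lymph node, where 14.6% passed. Nr4a2 was 3.49-fold lower (-1.80 ± 0.31), Egr2 was 2.07-fold lower (-1.05 ± 0.16), Egr3 was 2.06-fold lower (-1.05 ± 0.21) and Nr4a1 was 1.54-fold lower (-0.62 ± 0.15). The Nr4a1 arrays overlapped between these groups, and its adjusted p of 0.00549 became 0.0563 without replicate 2 of Foxp3- CD24lo and 0.0537 without replicate 3 of the naive cells. Nr4a3 differed by -0.01 between the same groups, with a 95% interval of -0.28 to 0.25. All 6 innate-like markers were lower in naive cells than in Foxp3- CD24lo cells, with a median difference of -2.45. The B cell markers Ms4a1 and Cd79b, 2 of 4, were higher in lymph node in both comparisons, and the summed level of the 4 was 7.17 to 8.79 in lymph node arrays and at most 7.08 in thymic ones. The part of such cells in these differences was not tested.

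Treg precursors had the highest mean of each Nr4a gene, but their Nr4a2 and Nr4a3 arrays overlapped those of Foxp3+ CD24hi cells, with differences of -0.03 and -0.21 for Foxp3+ CD24hi cells against precursors (adjusted p = 0.966 and 0.339). Against Foxp3- CD24hi thymocytes 5 of the 7 genes passed, 3 higher and 2 lower in precursors, where 9.11% of all genes passed. Nr4a3 was 2.65-fold higher (1.41 ± 0.13, adjusted p = 2.76e-08), Nr4a2 was 2.19-fold higher (1.13 ± 0.31, adjusted p = 0.0173) and Nr4a1 was 1.54-fold higher (0.62 ± 0.15, adjusted p = 0.00813). Egr1 was 2.20-fold lower (-1.13 ± 0.16, adjusted p = 1.32e-05) and Egr2 was 2.18-fold lower (-1.12 ± 0.16, adjusted p = 1.91e-05). In precursors Egr1 read 10.75, 10.90 and 10.65 and Egr2 read 8.30, 8.23 and 8.07, each below all arrays of Foxp3- CD24hi cells. Foxp3 was at 3.80 to 4.14 in precursors, within the range of the arrays labelled Foxp3- or naive, beside this pattern of high Nr4a with low Egr1 and Egr2. Of 6 innate-like markers 5 were higher in precursors than in Foxp3- CD24hi cells (median difference 1.95), as were 4 of 6 double-positive markers. Both counts were the same without replicate 3 of Foxp3- CD24hi, and the part of such cells in these differences was not tested.

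The Nr4a2 call in precursors was lost without replicate 1 of Foxp3- CD24hi (adjusted p = 0.12) or replicate 2 of the precursors (adjusted p = 0.0819). Without replicate 3 of Foxp3- CD24hi the same 5 genes passed, from -1.14 for Egr2 to 1.46 for Nr4a3. Between Foxp3+ CD24hi cells and precursors 1 of the 7 genes passed, where 16% of all genes did. Nr4a1 was 1.45-fold lower in the Foxp3+ cells (-0.54 ± 0.15, adjusted p = 0.0155). That call was lost without replicate 1 of Foxp3+ CD24hi (adjusted p = 0.0623) or replicate 3 of the precursors (adjusted p = 0.069). Egr1 and Egr2 were within 95% intervals of -0.15 to 0.49 and -0.12 to 0.53.

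Along maturation of Foxp3+ thymocytes none of the 7 genes passed at either step. From CD24hi to CD24int 0 of 7 passed, against 0.286% of all genes, and from CD24int to CD24lo 0 of 7 passed, against 0.0165%. Without adjustment, Nr4a1 had a 95% interval wholly below 0 at the first step (-0.75 to -0.11) and Nr4a3 at the second (-0.66 to -0.13). Nr4a3 was lower by 0.26 and then by 0.40, and Nr4a1 by 0.43 and then by 0.24, in both cases with arrays that did not overlap between neighbouring stages. Egr1 moved by 0.09 and 0.04 over the same steps, and Egr3 by 0.16 and 0.28, with overlapping arrays.

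In Foxp3- thymocytes 4 of the 7 genes fell at the first step, where 5.01% of all genes passed. Egr2 fell 1.76-fold (-0.82 ± 0.16, adjusted p = 0.00164), Nr4a1 fell 1.59-fold (-0.67 ± 0.15, adjusted p = 0.00766) and Nr4a3 fell 1.53-fold (-0.62 ± 0.13, adjusted p = 0.0034). Nr4a2 fell 2.16-fold (-1.11 ± 0.31, adjusted p = 0.0301). The Nr4a2 call was lost at adjusted p of 0.2 and 0.08 without replicates 1 and 3 of Foxp3- CD24int, and of 0.18 and 0.0811 without replicates 2 and 3 of Foxp3- CD24hi. Egr1 was lower by 0.43 ± 0.16 without overlap and missed the threshold (adjusted p = 0.138). A block on the replicate number brought it past (adjusted p = 0.0201). Without replicate 3 of Foxp3- CD24hi, Egr2 (-0.84), Nr4a1 (-0.70) and Nr4a3 (-0.56) still passed, and on the mean of its 3 probe sets Nr4a3 did not (-0.30, adjusted p = 0.172). At this step 3 of 6 double-positive markers fell, Rag1 by 8.64-fold, and 4 of 6 innate-like markers rose, Klrd1 by 5.89-fold. Without that array these counts were 3 and 2, and the part of such cells in the fall of the 7 genes was not tested.

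At the second Foxp3- step Nr4a1 and Nr4a3 fell and Egr3 rose, 3 of the 7 genes passing against 12% of all genes. Nr4a3 fell 2.26-fold (-1.18 ± 0.13, adjusted p = 2.24e-07) and Nr4a1 fell 1.72-fold (-0.78 ± 0.15, adjusted p = 0.000724). Egr3 rose 2.59-fold (1.38 ± 0.21, adjusted p = 2.31e-05). Egr1 was lower by 0.28 ± 0.16 (adjusted p = 0.315) and Egr2 higher by 0.17 ± 0.16 (adjusted p = 0.649). Nr4a2 was higher by 0.28 ± 0.31 and did not pass (adjusted p = 0.71). All 6 innate-like markers rose at this step, with a median difference of 3.67. Of 5 T cell markers 2 fell, Cd4 by 1.78-fold and Cd2 by 2.24-fold. The part of a changed cell mix in the values of the 7 genes was not tested.

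The steps themselves were compared between the classes. At the first step 0 of the 7 genes passed, against 1.54% of all genes, and Egr2 came closest at 0.85 ± 0.22 (adjusted p = 0.0548). Its call changed with single arrays, at adjusted p = 0.0285 without replicate 1 of Foxp3+ CD24int and 0.00663 without replicate 3 of Foxp3+ CD24hi. Without replicate 3 of Foxp3- CD24hi 0 of the 7 passed, with Egr2 at 0.87 (adjusted p = 0.0867). At the second step 2 of the 7 genes passed, against 4.97% of all genes. The fall of Nr4a3 was smaller in Foxp3+ cells by 0.78 ± 0.18 (adjusted p = 0.00868). Egr3 differed by -1.10 ± 0.29 (adjusted p = 0.0244).

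The Egr3 result at the second step rested on single arrays. Its adjusted p was 0.094 and 0.0776 without replicate 1 of Foxp3+ CD24lo and of Foxp3- CD24lo. It was 0.0592 and 0.0879 without replicates 2 and 3 of Foxp3+ CD24int, and 0.0782 without replicate 2 of Foxp3- CD24int. The Nr4a3 result passed in each of these 5 fits. Without all arrays numbered 1, a setting chosen after seeing the data, Nr4a3 lost its call (0.78, adjusted p = 0.117) and Egr3 kept it. On the mean of all probe sets of each gene neither passed, at 0.35 for Nr4a3 (adjusted p = 0.305) and -0.49 for Egr3 (adjusted p = 0.137). All 6 innate-like markers passed in the same term, with a median of -3.90, and their part in it was not tested.

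Egr3 encodes an Egr factor that, with Egr2, restrains T cell activation and serves in the development of natural killer T cells. Its arrays read 10.15, 9.90 and 9.85 in Foxp3- CD24lo thymocytes. They read 8.20, 8.22 and 8.39 in Foxp3- CD24hi cells, 8.73, 8.38 and 8.67 in Foxp3- CD24int cells and 8.24, 8.68 and 9.02 in Foxp3+ CD24lo cells. Every Foxp3- CD24lo array was above all 24 arrays of the other groups, the next highest being 9.23 in a lymph node Treg array. This is the only pair of neighbours in the order of Egr3 group means whose arrays did not overlap.

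Markers of natural killer and innate-like T cells were highest in the group where Egr3 was highest, and the other groups went both ways. All 6 measured markers were higher in Foxp3- CD24lo than in Foxp3- CD24int cells, and all 6 were lower in Foxp3+ than in Foxp3- CD24lo cells. Zbtb16, the transcription factor of innate-like T cells, had a mean of 10.90 in Foxp3- CD24lo and 6.89 in Foxp3- CD24int cells, and Il4 a mean of 9.39 against 4.84. The summed marker level was 12.13 to 12.45 in Foxp3- CD24lo arrays and at most 10.09 elsewhere. That second highest level was in precursors, where Egr3 was at 8.02 to 8.34. Lymph node Tregs, next after Foxp3- CD24lo cells by mean Egr3, had Egr3 at 8.73 to 9.23 and a summed marker level of 7.25 to 7.50. Over Foxp3- CD24hi, Foxp3- CD24int and lymph node naive cells both rose in that order. The summed marker level was 6.4 to 7.0, 7.4 to 9.0 and 9.4 to 9.7, and mean Egr3 was 8.27, 8.59 and 8.92. The part of innate-like cells in the Egr3 and Cd69 values of Foxp3- CD24lo cells was not tested.

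**Figure D3:**
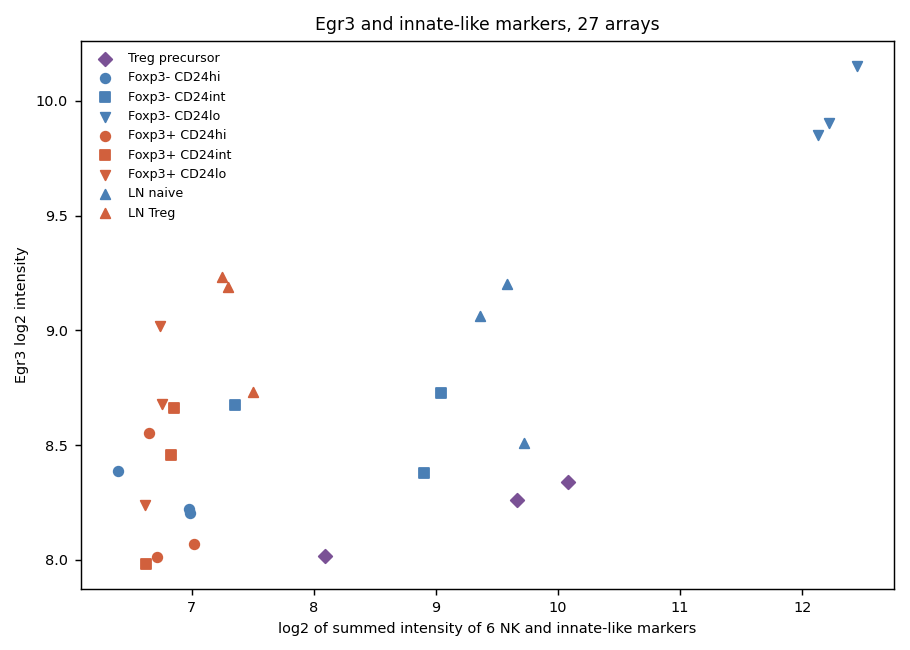
Log2 intensity of Egr3 (vertical axis) against the log2 of the summed intensity of 6 natural killer and innate-like T cell markers (horizontal axis), 1 point for each of the 27 arrays, coloured and shaped by sorted group. The 3 Foxp3- CD24lo arrays lie apart on both axes, at 12.13 to 12.45 and 9.85 to 10.15. Precursor arrays with marker levels up to 10.09 have Egr3 at 8.34 or below. Lymph node naive arrays have marker levels of 9.36 to 9.72 and Egr3 at 8.51 to 9.20.

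Cd69 did not pass in any of the 15 comparisons between groups. It read 9.35, 9.61 and 9.60 in Foxp3- CD24lo cells, the lowest group, and 10.08, 10.99 and 10.30 in Foxp3+ CD24hi cells, the highest by mean. The Foxp3- CD24lo arrays were below those of Foxp3- CD24int (9.80, 10.40 and 10.28) without overlap. That step was -0.64 ± 0.27 (adjusted p = 0.156). A block on the replicate number gave an adjusted p of 0.00957. Foxp3+ and Foxp3- cells differed by 0.08 at CD24hi, with a 95% interval of -0.49 to 0.64, and by 0.60 at CD24lo, with an interval of 0.04 to 1.17. Leaving out replicate 1 of Foxp3+ CD24lo brought the latter past the threshold (0.87, adjusted p = 0.0366).

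The spread of Cd69 followed the replicate number, which no label explains. The array numbered 1 was below its group mean in 9 of 9 groups, by 0.34 on average, and the array numbered 2 was above it in 8 of 9, by 0.25 on average. Egr1 was likewise below its group mean in the array numbered 1 in 9 of 9 groups, by 0.16 on average. Other members also leaned with the number. The array numbered 3 was above the group mean in 8 of 9 groups for Nr4a3 and in 7 of 9 for Egr1, Egr2 and Egr3. For Nr4a1 and Nr4a2 the array numbered 2 was above it in 7 of 9. The share of all genes with such counts was not computed. A list of 22 immediate early and heat shock genes, many of which cell dissociation also induces, lay below its group mean in the array numbered 1 in all 7 thymic groups, by 0.17 to 0.39. It lay above it in the array numbered 2 in all 9 groups, by 0.15 to 0.37. The part of handling in these differences was not tested.

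Probe sets of the same gene did not all show these patterns. Nr4a1, Egr1 and Cd69 have 1 probe set each, and the other 4 genes have 9 further ones. Both Egr2 probe sets gave the same calls, for example -0.81 on the second against Foxp3- cells at CD24hi. For Egr3 the second probe set, 1421486_at, gave -0.17 ± 0.17 at CD24lo (adjusted p = 0.622), so the Egr3 differences come from 1 of 2 probe sets. For Nr4a3, 1421079_at was dim (mean 3.82) and passed at CD24lo (0.72, adjusted p = 0.0252) and in precursors (0.91, adjusted p = 0.0102), while it gave -0.19 in lymph node. The third Nr4a3 probe set was flat.

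For Nr4a2, 1455034_at gave 1.45, 2.28 and 1.56 at CD24hi, CD24int and CD24lo, and 2.61 in lymph node, all past the threshold. A further one, 1450750_a_at, passed in these comparisons except at CD24lo (0.94, adjusted p = 0.0708). Of the other 3, 1450749_a_at passed at CD24hi (0.57) and CD24int (0.63), and 1433422_at and 1433423_at passed in none. On the mean of all its probe sets Nr4a2 differed by 0.81, 1.01 and 0.62 at CD24hi, CD24int and CD24lo and by 1.02 in lymph node, and Nr4a3 by 0.51, 0.59 and 0.94 at the 3 CD24 levels, all past the threshold. Egr3 differed by -0.75 at CD24lo on the mean of both, also past it. The files do not say which part of each transcript a probe set reads.

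**Figure D4:**
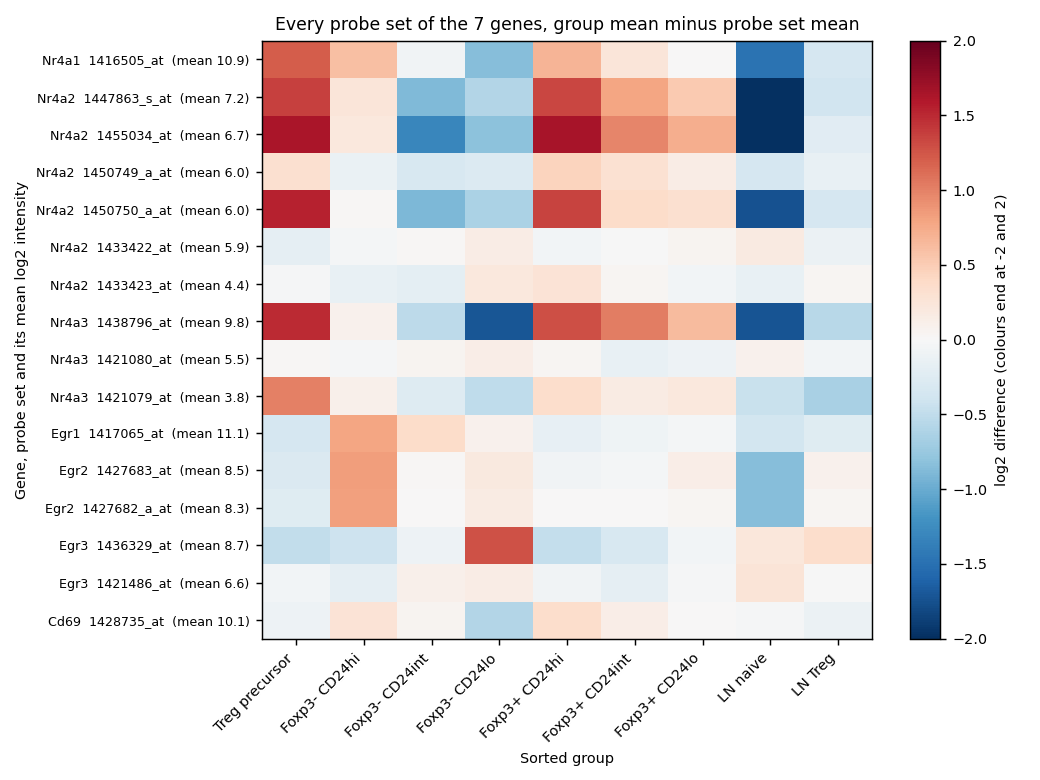
Mean of each sorted group (columns) minus the mean of that probe set over the 9 groups, in log2 units, for all 16 probe sets of the 7 genes (rows, with each probe set's mean level). Red is above and blue below the probe set's own mean, with colours ending at -2 and 2. The 2 Egr2 rows match, only 1 of the 2 Egr3 rows is high in Foxp3- CD24lo, and 2 of the 6 Nr4a2 rows and 1 of the 3 Nr4a3 rows are nearly flat.

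Among other genes induced by T cell receptor signalling, more were higher than lower in Foxp3+ cells, though the counts were close at CD24lo. Of 26 measured, 12 were higher and 4 lower in Foxp3+ cells at CD24hi, with a median difference of 0.29 against 0.01 over all genes, where 18% of all genes passed. The counts were 12 and 2 at CD24int (15.3% of all genes), 12 and 9 at CD24lo (21%), and 14 and 3 in lymph node (12.4%). The median difference at CD24lo was 0.16. The 4 lower at CD24hi were Tnfsf11 (-1.27), Tnf (-0.83), Nfkbid (-0.54) and Cd40lg (-0.49), named after their values were seen. Dusp4, a phosphatase of ERK, was 24.0-fold higher at CD24hi, and Spry1, an inhibitor of ERK signalling, was 5.38-fold higher. Tnfrsf4, which encodes OX40, was 4.53-fold and Tnfrsf18, which encodes GITR, 3.65-fold higher at CD24hi. Cd5, a surface protein whose level tracks self-reactivity, differed by 0.02 there (adjusted p = 0.961) and by 0.57 at CD24lo (adjusted p = 0.00113). In precursors 15 of the 26 were higher and 1 lower than in Foxp3- CD24hi cells, where 9.11% of all genes passed, including Dusp4 at 13.5-fold and Tnfrsf9, which encodes 4-1BB, at 7.14-fold. The counts without replicate 3 of Foxp3- CD24hi were 12 and 3 at CD24hi and 12 and 0 in precursors. For the 4 lower at CD24hi only this count is given, and the other genes named here kept their calls.

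Partners and linked genes of the Egr factors were also followed. Of 15 measured, 3 were higher and 5 lower in Foxp3+ cells at CD24hi, where 18% of all genes passed, with a median difference of -0.24. The counts were 3 and 6 at CD24int (15.3% of all genes), 3 and 8 at CD24lo (21%), and 3 and 4 in lymph node (12.4%). The counts at CD24hi were the same without replicate 3 of Foxp3- CD24hi, and the median was then -0.08. Nab2, an Egr-induced co-repressor of Egr factors, was 2.37-fold lower in Foxp3+ CD24hi cells (adjusted p = 0.000114), and Nab1, its relative, was 1.41-fold lower (adjusted p = 0.00194). Both were named after their values were seen. Id2, an inhibitor of E proteins, was 3.86-fold lower and Cblb, a ubiquitin ligase that raises the threshold of activation, was 2.47-fold higher in the same comparison. Against Foxp3- CD24hi cells, 2 of the 15 were higher and 4 lower in precursors, where 9.11% of all genes passed. Without replicate 3 of Foxp3- CD24hi these counts were 2 and 3. Cblb was 1.60-fold and Lag3 2.06-fold higher in precursors. Ndrg1 was 1.79-fold lower and Nab2 1.95-fold lower (adjusted p = 0.00336 for Nab2).

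Among 19 measured factors and enzymes that act on Egr and Nr4a promoters, 3 were higher and 2 lower in Foxp3+ cells at CD24hi (18% of all genes passed), and 5 were higher and 3 lower at CD24lo (21%). Leaving out replicate 3 of Foxp3- CD24hi gave 2 and 1 at CD24hi, with the calls of the genes named here kept. Ppp3ca, a catalytic subunit of calcineurin, was 1.84-fold higher at CD24hi (adjusted p = 0.00153) and 1.69-fold lower at CD24lo (adjusted p = 0.00482). Srf, the factor that binds CArG boxes, was 1.42-fold lower in Foxp3+ cells at CD24hi (adjusted p = 0.00301). Crem, a cyclic AMP response element modulator, was 1.77-fold higher at CD24hi and 3.07-fold higher in lymph node Tregs. Rasgrp1, which activates Ras, differed by -0.15 at CD24hi (adjusted p = 0.507) and was 1.76-fold higher at CD24lo.

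Of the 22 AP-1, other immediate early and heat shock genes, 2 were higher and 2 lower in Foxp3+ cells at CD24hi, where 18% of all genes passed, also without replicate 3 of Foxp3- CD24hi. The counts were again 2 and 2 at CD24int (15.3% of all genes), 1 and 7 at CD24lo (21%), and 0 and 4 in lymph node (12.4%). Fos, the brightest of those not passing, differed by 0.60 ± 0.36 at CD24hi (adjusted p = 0.309) and by 0.13 ± 0.36 at CD24lo. The heat shock gene Hspa1a was 5.14-fold lower at CD24hi and 4.63-fold lower at CD24lo. At the second Foxp3- step, where Egr3 rose, Fosl2 rose by 1.41 and Atf3 by 1.38 on the log2 scale, among 4 genes that rose and 1 that fell, where 12% of all genes passed.

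Transcripts of egress receptors and their regulators were read beside Cd69. CD69 acts on S1PR1 protein at the surface, which these arrays do not measure. Of 6 measured, 4 were higher and 1 lower in Foxp3+ cells at CD24hi (18% of all genes passed), and 3 higher and 1 lower at CD24lo (21%). Leaving out replicate 3 of Foxp3- CD24hi gave 3 and 1 at CD24hi. S1pr1, whose product CD69 removes from the surface, was 2.58-fold higher at CD24hi (adjusted p = 1e-04) and 1.81-fold higher at CD24lo (adjusted p = 0.00772). Foxo1, which drives Klf2 and Il7r, was 2.01-fold higher at CD24hi, while Klf2 differed by 0.43 ± 0.32 (adjusted p = 0.445). Il7r, the receptor of interleukin 7, was 2.75-fold lower there (adjusted p = 0.00299). At the second Foxp3- step 4 of the 6 fell (12% of all genes passed), S1pr1 by 1.18 on the log2 scale, in the group where Cd69 was lowest.

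The genes whose 9 group means were most like each member's were taken from the 3138 genes spanning at least 1 log2 unit. These are the best 3 of a wide search over 9 points that share arrays. How high such values run among unrelated genes was not tested. For Nr4a3 they were Greb1 (r = 0.989), Rpgr (0.988) and Stxbp4 (0.983). For Nr4a2 they were Hspa4l (0.982), Phlda1 (0.982) and Ptprs (0.976), and for Nr4a1 Spata24 (0.972), Afdn (0.967) and Ezh2 (0.961). Egr3 was most like Trpv2 (0.988), Nfic (0.980) and Myo7a (0.970). Egr1 was most like the receptor segment Trav6-3 (0.912), Pld3 (0.909) and Col23a1 (0.888), and Egr2 like Ggt7 (0.872), Got1 (0.869) and Pld3 (0.856). For Cd69 they were Abcg2 (0.944), Tpcn1 (0.936) and Mturn (0.924).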

How the data were processed

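Values are the deposited intensities, which the authors made with RMA per the submitters' processing notes. Its version and settings are not given in the sources used here. Per the labels' protocols, RNA was purified on Qiagen columns and 50 ng was labelled for Affymetrix 3′ arrays. Deposited intensities ran from 3.55 to 24083 with array medians of 30.3 to 32.0, so they were taken as linear and converted to log2. No detection calls were used, and precision is limited by how many arrays there are.

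The platform's gene table gave 1 symbol for 34958 of 45101 probe sets, several for 932 and none for 9211. Where several single-symbol probe sets shared a gene, the brightest by mean over all arrays stood for it (18194 genes), and a further fit covered all single-symbol probe sets. limma 3.58.1 in R 4.3.3 fitted 9 group means to 27 arrays with empirical Bayes moderation, whose prior degrees of freedom were 5.98. Tests were two-sided, with p-values adjusted by Benjamini-Hochberg over all genes within each of 15 comparisons, with a threshold of 0.05. Intervals are the 95% intervals of single genes, unadjusted. The code was tested on simulated data.

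The digit that opens each sample's description code gave its replicate number. Same-numbered arrays deviated together (every correlation over 0.1, from the data alone) in 9 of 15 comparisons. The exceptions were Foxp3+ against Foxp3- at CD24int and CD24lo, both step comparisons, naive against Foxp3- CD24lo cells, and lymph node against thymus. The genes, lists and comparisons were chosen with earlier results of these data known. Named genes were the 7 members, and from each list up to 4 passing genes with the smallest p and the brightest one not passing, save those said to be chosen after seeing values. Lists came from general knowledge. Alternatives are given in the closing section.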

Additional observations from a re-analysis of the deposited data

Results flagged for a closer look

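The difference between Tregs and conventional cells was itself different between settings for 3 genes, by interaction terms in limma. Between lymph node and CD24lo thymocytes it differed by -1.18 ± 0.18 for Nr4a3 (adjusted p = 4.88e-05), by 1.01 ± 0.22 for Egr2 (adjusted p = 0.00283) and by 1.45 ± 0.29 for Egr3 (adjusted p = 0.00107). Between the second maturation steps of Foxp3+ and Foxp3- cells it differed by 0.78 ± 0.18 for Nr4a3 (adjusted p = 0.00868) and by -1.10 ± 0.29 for Egr3 (adjusted p = 0.0244). Innate-like markers, highest in Foxp3- CD24lo cells, passed in the first comparison for 5 of 6 (median 2.99) and in the second for 6 of 6 (median -3.90), and their part was not tested. Both comparisons share the Foxp3+ and Foxp3- CD24lo arrays. With 3 arrays a group, single arrays were not tested as outliers.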

How the results depend on the processing

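Of 1834 values of single genes under the alternatives, 1777 kept their side of the threshold, of which 66 changed sign with neither value passing, 33 lost the call, 24 gained it and 0 called values reversed. Of 262 counts of members, 242 stayed within 1.5 times. Without all arrays numbered 1, chosen after seeing the data, the count was 3 instead of 5 for precursors against Foxp3- CD24hi, 0 instead of 1 for Foxp3+ CD24hi against precursors, 2 instead of 4 for the first Foxp3- step and 1 instead of 2 for the second step compared. With the mean of all probe sets the last was 0, and Nr4a3 lost its call in lymph node (0.28, adjusted p = 0.132). The first step compared gave 1 instead of 0 with the replicate block, without dim genes and with an added constant of 16. Lymph node against CD24lo Tregs gave 2 instead of 1 with the replicate block and with the compared groups alone. Leaving out single replicates gave 0 to 1 for Foxp3+ CD24hi against precursors and for the first step compared, and 1 to 2 for the second step compared and for lymph node against CD24lo Tregs.

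The replicate block also brought Cd69 past the threshold over the 9 groups (adjusted p = 0.00362), at CD24lo (0.00966) and in naive cells against Foxp3- CD24lo (0.0201), and Egr1 in the latter (0.00724) and at CD24int (0.00732), and Egr2 at the first step compared (0.00933). Apart from these and the blocked values in the report it changed no call of the 7 genes. Over all genes the block raised the calls from 52 to 210 and from 3 to 23 at the Foxp3+ steps, 911 to 1822 and 2182 to 3407 at the Foxp3- steps, 281 to 1041 and 905 to 1533 for the steps compared, 1658 to 2671 and 2917 to 4443 for the precursors, 1078 to 1922 for lymph node against CD24lo Tregs, and 1996 to 3067 for lymph node against thymus. The compared groups alone gave 1001 and 1804 for the precursors, 0 and 0 at the Foxp3+ steps, 552 at the first Foxp3- step and 166 for the first step compared. At the Foxp3+ steps, other settings gave 4 to 25 instead of 52 and 1 to 16 instead of 3. For the first step compared, 159 and 185 replaced 281 without all arrays numbered 1 and without replicate 1 of Foxp3- CD24int. The cause of these shifts was not tested.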
